A study of Mus musculus with 27 samples.

Results

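Livers of refed mice were compared with livers of mice given caged food, both after 60 min. All mice were wild type (WT), carried the strain label C57/BLN6 and had been fasted for 16 h. The refed mice then ate for 60 min. The caged food mice were for the same 60 min given food enclosed in a small cage, which they could sense and not eat. The comparison used 6 of the 27 liver libraries of the series, the 3 refed and the 3 caged food libraries of 60 min, chosen by their titles and not by any measured value. Mice that had been fasted for 16 h and given no food gave 3 further libraries, which are printed beside them, and refed and caged food livers at 30, 120 and 240 min, 3 libraries per group and time, were used to place the difference in time. The study describes its replicates as biological, and the ages of the mice are not given in the sources used here. Polyadenylated RNA of whole liver was sequenced, and the values are normalised read counts per gene.

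Eating delivers glucose and amino acids through the portal vein and raises insulin. In the liver, insulin signals through AKT, which keeps the transcription factor FOXO1 out of the nucleus. FOXO1 drives the genes of glucose release, and amino acids together with insulin activate mTORC1, the kinase complex that promotes protein and ribosome synthesis. Newly made secretory proteins are folded in the endoplasmic reticulum (ER), whose chaperones rise when the load grows. Heat shock proteins fold proteins in the cytosol. Food that is only seen and smelled can act on the liver through the brain, and the title of the series names sensory food perception, melanocortins, liver mTOR and ER homeostasis. The comparison of eating with sensing food at one time addresses which liver transcripts differ when the food is also ingested.

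Promoters of genes among the lowest p in the heat shock and the glucose release lists are shown first, because these lists lead the results below. Only windows with a match are printed. Hspa1b, also among the genes of lowest p, had 1 match, 104 bases before its start, and is not printed. They are the RefSeq windows of GRCm38.p6 from 250 bases before to 50 bases after the start, printed 5′ to 3′ on the gene's strand, and the capitals mark exact matches, on either strand, to a FOXO site (CAAAACA) or to a pair of heat shock element units (GAANNTTC or TTCNNGAA). The matches begin 174 bases before the start of G6pc, 108 before that of Igfbp1, 37 before that of Irs2, 33 before and 36 and 41 after that of Hsph1 (these last matches overlap), and 42 after that of Bag3.
G6pc, chr11:101367466-101367765, plus strand: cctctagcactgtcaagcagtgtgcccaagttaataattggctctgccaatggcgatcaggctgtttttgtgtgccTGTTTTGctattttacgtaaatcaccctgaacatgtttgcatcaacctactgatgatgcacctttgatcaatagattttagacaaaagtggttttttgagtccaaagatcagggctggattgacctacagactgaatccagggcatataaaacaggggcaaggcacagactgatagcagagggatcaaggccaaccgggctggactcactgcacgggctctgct
Igfbp1, chr11:7197537-7197836, plus strand: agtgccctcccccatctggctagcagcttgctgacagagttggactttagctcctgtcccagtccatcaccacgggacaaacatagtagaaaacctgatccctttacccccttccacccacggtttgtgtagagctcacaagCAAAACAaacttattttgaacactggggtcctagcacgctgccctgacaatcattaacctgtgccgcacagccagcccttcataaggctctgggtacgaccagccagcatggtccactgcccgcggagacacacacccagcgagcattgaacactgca
Irs2, chr8:11008880-11009179, minus strand: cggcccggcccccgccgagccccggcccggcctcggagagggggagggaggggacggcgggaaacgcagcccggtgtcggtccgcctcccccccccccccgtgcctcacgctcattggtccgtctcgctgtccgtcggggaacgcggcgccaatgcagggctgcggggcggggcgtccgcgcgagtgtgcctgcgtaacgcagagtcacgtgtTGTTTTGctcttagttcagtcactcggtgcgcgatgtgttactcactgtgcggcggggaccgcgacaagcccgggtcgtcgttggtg
Hsph1, chr5:149636287-149636586, minus strand: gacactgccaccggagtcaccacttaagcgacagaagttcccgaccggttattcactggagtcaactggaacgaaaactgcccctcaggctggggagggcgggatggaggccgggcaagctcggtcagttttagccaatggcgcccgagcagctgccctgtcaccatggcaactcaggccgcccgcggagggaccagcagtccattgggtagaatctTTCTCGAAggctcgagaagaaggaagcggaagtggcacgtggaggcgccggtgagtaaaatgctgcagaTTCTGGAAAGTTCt
Bag3, chr7:128523333-128523632, plus strand: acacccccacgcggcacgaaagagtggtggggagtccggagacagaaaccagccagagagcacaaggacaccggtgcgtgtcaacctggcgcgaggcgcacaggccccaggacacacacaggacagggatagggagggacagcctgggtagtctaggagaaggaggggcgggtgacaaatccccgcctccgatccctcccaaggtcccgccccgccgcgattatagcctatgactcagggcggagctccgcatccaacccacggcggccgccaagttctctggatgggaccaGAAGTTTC
The FOXO site was found in 5 of the 21 genes of the glucose release list that have a window (G6pc, Igfbp1, Irs2, Irs1 and Creb3l3), and in 7.20% of all 27025 genes with a window. The heat shock element was found in 10 of 15 heat shock genes and in 16.97% of all genes, and Dnajb1 had none. Klf15, also among the genes of lowest p, had no FOXO site in its window. Another FOXO sequence, GTAAACA, was found in 1 of the 21 glucose release genes (Txnip) and in 4.05% of all genes. The heat shock element was found in 6 of these 21 genes. A sequence for the ER stress element, CCAAT and CCACG separated by 9 bases, was found in 7 of 21 ER chaperone genes and in 0.14% of all genes. A match is a description of the sequence, and no test was made of it.

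Eating for 60 min changed 1738 of 15932 genes tested relative to caged food (10.9%), of which 1072 were higher in refed livers (6.73%) and 666 lower (4.18%), by limma on log2 (normalised read count + 1) with Benjamini-Hochberg adjusted p under 0.05. All counts of changed genes below use this threshold, the number in parentheses after a gene is its log2 difference, refed minus caged food, ± SE from that fit with 3 libraries per group, and fold values are taken from it. Most differences were moderate: 188 genes rose and 142 fell at least 2-fold, and 37 rose and 27 fell at least 4-fold. The median difference of all genes tested was -0.02. Counts of list members below are to be set beside the 6.73% of all genes called higher and the 4.18% called lower. The 3 refed and 3 caged food values did not overlap for 3483 genes (21.9%). In bulk liver, fewer cells of a type and less RNA per cell cannot be told apart.

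**Figure D1:**
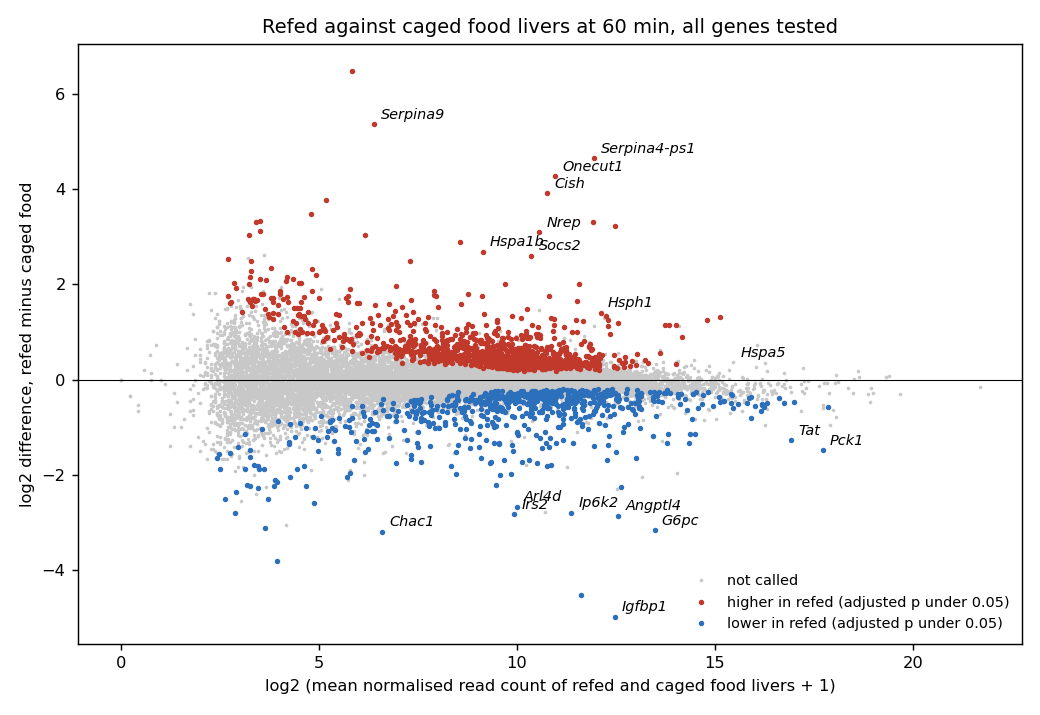
Each point is 1 of 15932 genes, with its mean level on the x axis (log2 of the mean normalised read count + 1 of the 6 libraries) and its log2 difference, refed minus caged food, on the y axis. The 1072 genes called higher are red, the 666 called lower are blue, and the named genes at the edges include Onecut1, Cish and Socs2 above and Igfbp1, G6pc and Ip6k2 below.

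Depth and library quality were similar in both groups with 3 exceptions. The estimated reads assigned to genes were 51.2, 48.6 and 38.0 M in refed livers and 46.7, 47.3 and 47.0 M in caged food livers. The summed normalised counts, 42588026 to 43301280 in refed and 45871531 to 50037562 in caged food livers, did not overlap. With values scaled to equal totals instead, 2614 genes were higher and 310 lower (89.40% higher, against 61.68% as deposited), the median of all genes moved to 0.13, and list medians just below 0 became positive. The second exception was caged food replicate 2, in which the 24 acute phase genes summed to 4344226, against 1833460 and 1463859 in caged food replicates 1 and 3. Kupffer cell markers, of resident liver macrophages, summed to 33560 in that library, against 12759 and 14652, and leukocyte markers to 2552, against 534 and 687. Refed livers ranged from 1321830 to 1454444, from 12234 to 15837 and from 547 to 851 for these 3 lists. The third exception was refed replicate 1, with a library weight of 0.44 (lower where values spread more), against 0.34 in caged food replicate 2. Without refed replicate 1, 1204 genes were called, against 1440 without caged food replicate 2. Medians against fasted livers in refed replicates 1, 2 and 3 were 0.57, 0.25 and 0.27 for ribosome biogenesis and -0.61, -0.17 and 0.04 for clock genes. Leave-out counts of lists below are for caged food replicate 2 only. Hepatocyte markers were high in every library (summed 4592060 to 6903232 over the 6), pancreas markers summed to 34 or less, with Cela3b and Prss2 at 0, and adipose markers to 291 to 431, with Lep at 0.

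**Figure D2:**
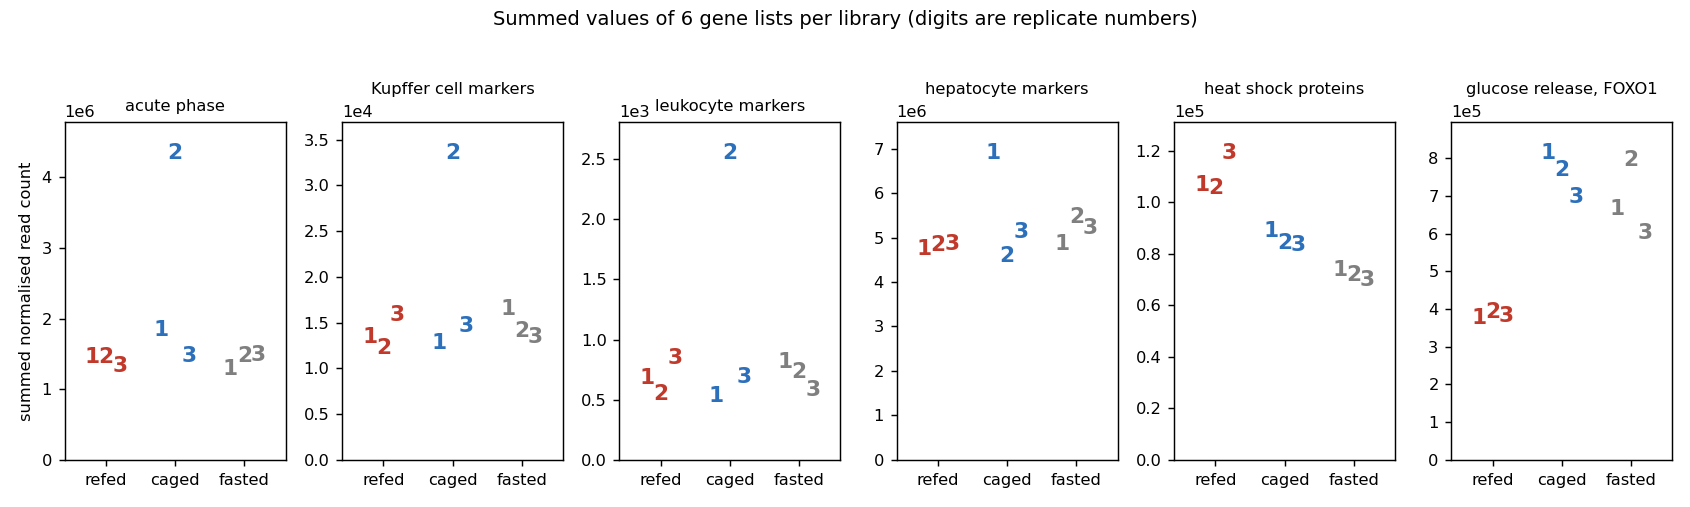
Summed normalised read counts of 6 gene lists (y axis, linear, from 0) in refed, caged food and fasted livers, with each digit at its replicate's value. Caged food replicate 2 lies above all others for acute phase genes (4344226), Kupffer cell markers (33560) and leukocyte markers (2552), and the 3 refed livers lie above the caged food livers for heat shock proteins and below them for the glucose release and FOXO1 list.

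Genes of glucose release and insulin-sensitive FOXO1 targets were lower after eating. Of 24 genes on this list, 10 fell and 1 rose, with a median of -0.44, and without caged food replicate 2 the counts were 9 and 1. G6pc, the catalytic subunit of glucose-6-phosphatase that releases glucose from hepatocytes, had 3436, 2005 and 1700 normalised counts in refed livers, against 22309, 20459 and 18430 in caged food livers and 14419, 22279 and 17062 in fasted livers. The refed values lie below all others (-3.16 ± 0.28, adjusted p = 6.6e-08, 8.95-fold lower). Igfbp1, a secreted binding protein of insulin-like growth factors that insulin represses, had 831, 190 and 147 in refed livers, against 5769, 21143 and 5979 in caged food livers. Its refed and caged food values do not overlap, and the highest of all came from caged food replicate 2 (-4.97 ± 0.57, adjusted p = 3e-06, and -4.36 without that library). Irs2, an insulin receptor substrate that is itself a FOXO target, had 304, 259 and 168 in refed livers, against 1767, 1947 and 1375 in caged food livers (-2.82 ± 0.26, adjusted p = 1.1e-07). Pck1, the cytosolic phosphoenolpyruvate carboxykinase, had 95482, 117619 and 129753 in refed livers, against 360688, 288854 and 303123 in caged food livers (-1.48 ± 0.26, adjusted p = 0.00057).

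Klf15, a transcription factor of amino acid use in fasting (-1.17 ± 0.14), Tat, the first enzyme of tyrosine breakdown (-1.27 ± 0.22), Foxo3 (-0.82 ± 0.17), Pdk4, which inhibits pyruvate dehydrogenase (-0.75 ± 0.24), Txnip, which restrains glucose uptake (-0.58 ± 0.11), and Fbp1, a gluconeogenic enzyme (-0.39 ± 0.10), also fell. The riser was Pik3r1, the regulatory subunit of PI3-kinase (1.13 ± 0.14, adjusted p = 1.2e-05). Ppargc1a, the coactivator that promotes gluconeogenesis, was not called (-0.28 ± 0.22, adjusted p = 0.50), and its 1806, 1086 and 1157 counts in refed livers overlap the 1564, 1936 and 1331 in caged food livers. One strong fall was outside the naming rule and was picked after its value was seen: Depp1, a FOXO-induced gene that the table lists under the clone name 8430408G22Rik, had 433, 185 and 192 in refed livers, against 5263, 8667 and 4152 in caged food livers and 1753, 1627 and 1711 in fasted livers (-4.52 ± 0.37, adjusted p = 4.2e-08).

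Genes of glucose use moved in both directions. Of 19 genes, 3 rose and 2 fell, with a median of -0.06, and without caged food replicate 2 the counts were 2 and 1. Among the rises, Pfkfb3, which makes an activator of glycolysis, was called (0.94 ± 0.24), although not when refed replicate 3 was left out, and so was Ppp1r3b, the glycogen-targeting subunit of protein phosphatase 1 (1.15 ± 0.36, adjusted p = 0.042), whose groups overlap and whose call was lost in 9 of 16 alternatives. Arrdc4, a relative of Txnip, and Pfkfb1 fell (-0.83 ± 0.16 and -0.42 ± 0.14). Of 15 genes of glucagon and cAMP signalling, 1 rose, where 6.73% of all genes were called higher. This was Creb1 (0.27 ± 0.08), a call lost in 7 of 16 alternatives.

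**Figure D3:**
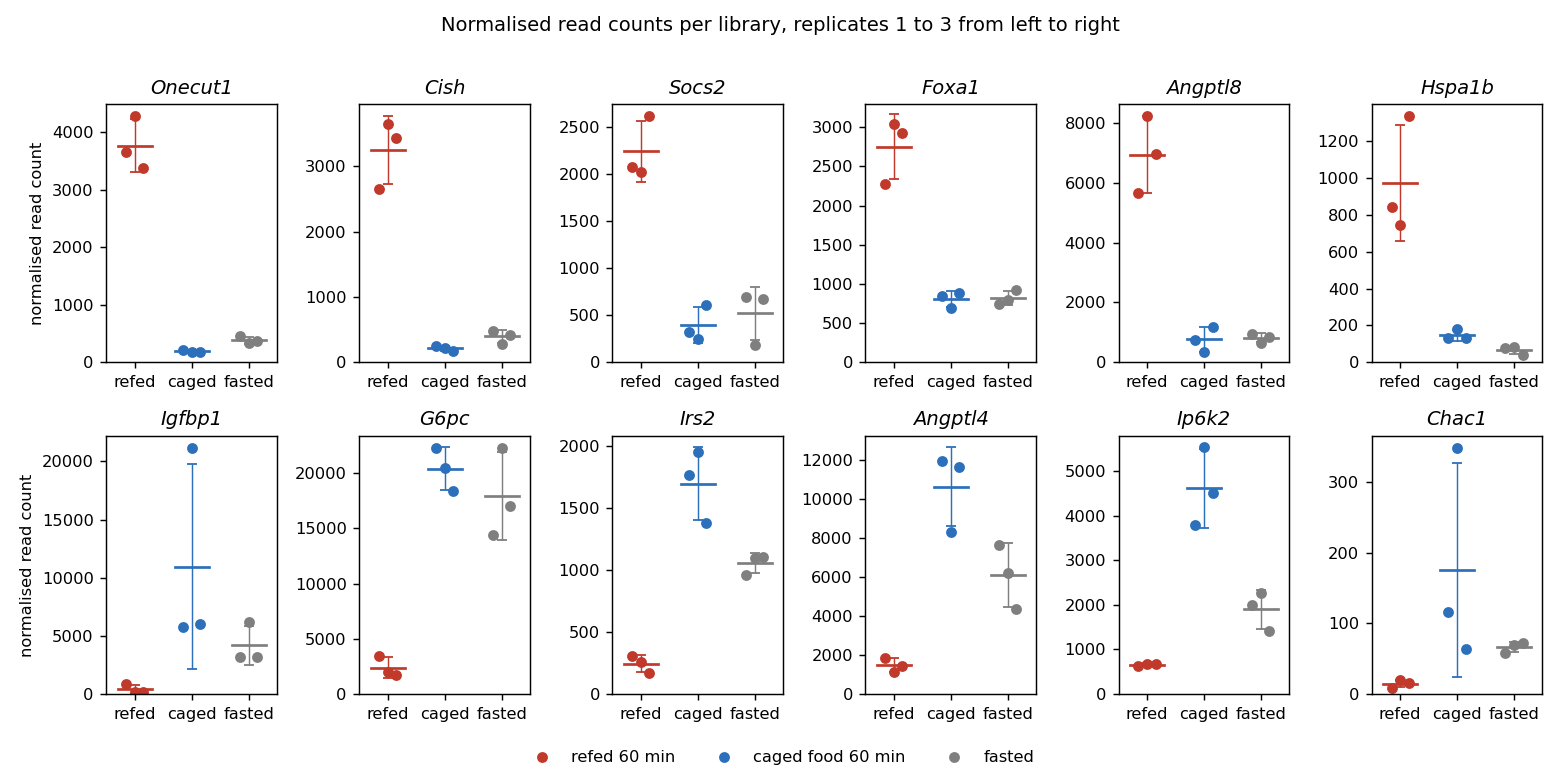
Normalised read counts (y axes, linear, from 0) of 12 genes in refed, caged food and fasted livers, with 1 point per library, the mean as a bar and the SD as whiskers (n = 3). In the upper row each refed library lies above each caged food and fasted library, and in the lower row each refed library lies below them.

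Cytosolic heat shock proteins were higher after eating. Of 19 genes, 13 rose and 0 fell, with a median of 0.55, and the log2 difference was above 0 for each of the 19. Without caged food replicate 2, 9 rose. Hsph1, a large HSP70-like chaperone, had 5463, 5918 and 7985 in refed livers, against 2515, 2317 and 2393 in caged food livers and 1535, 1495 and 1315 in fasted livers. The 3 groups form 3 separate steps (1.403 ± 0.18, adjusted p = 1.1e-05). Hspa1b, the stress-induced HSP70, had 844, 742 and 1333 in refed livers, against 130, 182 and 130 in caged food livers and 77, 85 and 40 in fasted livers (2.69 ± 0.41, adjusted p = 8.9e-05). Its near-identical copy Hspa1a had 13, 30 and 61 in refed livers, against 11, 14 and 4 in caged food livers, and reads may be split between these copies (1.63 ± 0.53, adjusted p = 0.04996, a call lost in 10 of the 15 alternatives that gave a value). Bag3, a co-chaperone of selective autophagy (0.999 ± 0.15), Dnajb1 and Dnaja1, HSP40 co-chaperones of HSP70 (0.88 ± 0.15 and 0.70 ± 0.15), Hsp90aa1, the inducible HSP90 (0.94 ± 0.20), Stip1, which joins HSP70 to HSP90 (0.47 ± 0.11), and Hsf1, the heat shock transcription factor (0.29 ± 0.08), also rose. The remaining risers were Hspa4l, Dnajb4, Chordc1 and Hspa4 (0.28 to 0.65). Against fasted livers, 18 of the 19 were called higher in refed livers and 0 in caged food livers, where 11.0% and 0.220% of all genes were called. The list medians against fasted livers were 0.84 in refed and 0.40 in caged food livers, and those of all genes tested -0.02 and 0.01. Both of these comparisons share the fasted libraries. Of 15 mitochondrial and TRiC chaperones, Hspe1 rose (0.53 ± 0.12) and Dnaja3 fell (-0.19 ± 0.06, lost in 10 of 16 alternatives).

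Ribosome biogenesis genes were also higher in refed livers. Of 38 genes, 20 rose and 0 fell, with a median of 0.37, and without caged food replicate 2 the count of risers was 18. Nop56, a core protein of box C/D small nucleolar ribonucleoproteins, had 1725, 1182 and 1141 in refed livers, against 512, 494 and 572 in caged food livers (1.33 ± 0.13, adjusted p = 3.9e-07). Rrs1, a ribosome assembly factor, had 1486, 1517 and 1388 in refed livers, against 717, 814 and 802 in caged food livers (0.91 ± 0.10). Both genes showed refed values well above all caged food values. Rrn3, the RNA polymerase I initiation factor (0.87 ± 0.11), Nolc1, a nucleolar chaperone of small nucleolar RNPs (1.02 ± 0.13), Gar1, of box H/ACA RNPs (0.98 ± 0.13), Nop58 (0.95 ± 0.15), Nop2, a ribosomal RNA methyltransferase (0.87 ± 0.14), and Polr1b, a subunit of RNA polymerase I (0.52 ± 0.11), rose as well. Myc, a transcription factor of growth and of these genes, had 379, 968 and 676 in refed livers, against 128, 234 and 194 in caged food livers and 213, 322 and 356 in fasted livers. Its refed values exceeded the caged food values (1.80 ± 0.49, adjusted p = 0.020), but the call was lost without refed replicate 2, refed replicate 3 or caged food replicate 1. Of 26 genes of the mTORC1 pathway and its amino acid sensors, 2 rose and 4 fell (median -0.09). Mlst8, an mTOR subunit, and Nprl3, of the GATOR1 complex that restrains mTORC1, rose (0.59 ± 0.13 and 0.42 ± 0.10, the second not without refed replicate 1). Flcn, folliculin (-0.67 ± 0.11), Sesn1, a sestrin (-0.42 ± 0.09, lost in 3 of 16 alternatives), Ddit4, an mTORC1 inhibitor (-1.42 ± 0.36, not without refed replicate 3 or caged food replicate 2), and Eif4ebp1, a translation repressor (-0.30 ± 0.09), fell. Scaling to equal totals turned the median of this list to 0.06.

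A liver transcription factor was among the largest rises. Onecut1, the hepatocyte factor also known as HNF6, had 3657, 4278 and 3370 in refed livers, against 222, 178 and 182 in caged food livers and 454, 333 and 369 in fasted livers. The refed values stand far above both other groups (4.27 ± 0.31, adjusted p = 9.2e-09, 19.3-fold higher). The forkhead factors Foxa1 (1.76 ± 0.19), Foxa2 (1.653 ± 0.19) and Foxa3 (0.68 ± 0.14), which open liver chromatin, and Onecut2 (0.96 ± 0.12) also rose. Foxa1 had 2278, 3048 and 2932 in refed livers, against 846, 691 and 888 in caged food livers. Of the 19 factors on this list, 5 rose and 3 fell, with a median of -0.05 that scaling to equal totals turned to 0.10. The falls were Nr0b2, the bile acid repressor SHP (-1.43 ± 0.28), Nr1i2, the xenobiotic receptor PXR (-0.49 ± 0.12), and Cebpd (-1.15 ± 0.34). Hnf4a and Cebpa were not called (-0.26 and 0.27). Onecut1 lies at chr9:74861921-74891781 on the plus strand of GRCm38, and 2 noncoding transcripts just before it, Gm16551 (chr9:74847983-74860134, plus strand) and Gm28182 (chr9:74852909-74855385, minus strand), were picked after their values were seen. Gm16551 had 462, 801 and 711 in refed livers, against 84, 52 and 142 in caged food livers (2.89 ± 0.39), and Gm28182 had 55, 77 and 63, against 5, 8 and 1 (3.78 ± 0.48). These 2 overlap on opposite strands, an annotated gene, Gm20649, overlaps both and Onecut1, and the strand setting of the counting is not given in the sources used here.

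Targets of growth hormone and STAT5 signalling held further large rises. Cish, a suppressor of cytokine signalling that STAT5 induces, had 2654, 3644 and 3435 in refed livers, against 245, 226 and 173 in caged food livers and 487, 287 and 423 in fasted livers (3.91 ± 0.37, adjusted p = 1.5e-07, 15.1-fold higher). Socs2, of the same family, had 2080, 2027 and 2619 in refed livers, against 321, 249 and 615 in caged food livers (2.6003 ± 0.48, adjusted p = 0.00073). No refed library came near the caged food range for either gene. Over the list of 16, 2 rose and 2 fell, with a median of -0.10. The falls were Pim1, a STAT-induced kinase (-0.90 ± 0.18), and Stat5b itself (-0.42 ± 0.09, not with values scaled to equal totals), and Igf1 was not called (0.01).

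Other large rises belonged to no list. Serpina9 and Serpina4-ps1, both in the clade A serpin cluster on chromosome 12, had 110, 215 and 161 against 3, 1 and 6, and 3974, 10511 and 8170 against 221, 213 and 449, in refed against caged food livers (5.36 ± 0.66 and 4.65 ± 0.44). Serpina9 was near 0 in caged food livers and in fasted livers (3, 1 and 0). Nrep, a regulator of neuronal regeneration (3.09 ± 0.55), Ikzf4, a zinc finger factor (2.49 ± 0.26), Aacs, acetoacetyl-CoA synthetase (2.01 ± 0.46), Phlda1 (2.0015 ± 0.40) and Tchh, which encodes trichohyalin (1.90 ± 0.40), also rose. Actg1, gamma actin, rose (3.04 ± 0.52) at 97, 194 and 91 against 15, 10 and 17, and its reads may be shared with actin pseudogenes. A processed pseudogene on chromosome 5, listed as RP23-59B8.1 and picked after its value was seen, had 100, 102 and 135 in refed livers, against 1, 0 and 0 in caged food livers.

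Genes of growth arrest and apoptosis were lower after eating. Of 16 genes, 8 fell and 0 rose, with a median of -0.37, and 6 fell without caged food replicate 2 and 5 fell and 1 rose with values scaled to equal totals. Ccng2, a cyclin that FOXO factors induce and that halts the cell cycle, had 284, 317 and 299 in refed livers, against 1023, 966 and 1006 in caged food livers (-1.73 ± 0.13, adjusted p = 2.3e-08). Bbc3, the BH3-only protein PUMA, had 191, 127 and 117 in refed livers, against 585, 559 and 543 in caged food livers (-1.98 ± 0.17, adjusted p = 5.1e-08). Neither gene's groups came close to each other. Btg1 and Btg2, antiproliferative factors (-1.68 ± 0.15 and -0.97 ± 0.25), the BH3-only genes Bmf and Bcl2l11 (-1.43 ± 0.35 and -0.56 ± 0.14), Sesn1 and Mcl1, which instead protects cells (-0.31 ± 0.10), were the other falls. Of 19 cell cycle genes, 1 fell, Birc5, survivin (-1.08 ± 0.34, adjusted p = 0.041, lost in 10 of 16 alternatives).

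Ip6k2, inositol hexakisphosphate kinase 2, had the lowest p of all genes. It had 624, 676 and 676 in refed livers, against 3786, 5544 and 4520 in caged food livers and 2005, 2270 and 1416 in fasted livers (-2.79 ± 0.16, adjusted p = 1.1e-10). The 3 groups do not overlap, with the fasted livers between the others: the difference from fasted livers was -1.50 (adjusted p = 1.4e-06) in refed and 1.29 (adjusted p = 0.00045) in caged food livers. Herpud1, of ER-associated degradation, had 10795, 12646 and 16323 in refed livers, against 29422, 26317 and 31158 in caged food livers and 17306, 14594 and 9280 in fasted livers, so that the caged food livers stood apart (-1.15 ± 0.24, and 1.12 with adjusted p = 0.047 for caged food minus fasted). Further large falls were Angptl4, the secreted inhibitor of lipoprotein lipase, with 1857, 1141 and 1441 against 11933, 8289 and 11672 (-2.85 ± 0.22), Lpin1, a phosphatidate phosphatase (-2.26 ± 0.52), the transcriptional regulators Klf11 (-1.82 ± 0.16) and Pnrc1 (-1.81 ± 0.15), the translation regulator Cpeb2 (-1.80 ± 0.17) and Rgs16, a regulator of G protein signalling (-2.22 ± 0.62). The call of Rgs16 was lost without refed replicate 1, refed replicate 2 or caged food replicate 1.

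Of 26 ER chaperones and folding factors, 0 rose and 2 fell at 60 min, where 10.9% of all genes were called, with a median of -0.11 that scaling to equal totals turned to 0.05, and without caged food replicate 2 the counts were 1 and 1. Hspa5, the major ER chaperone BiP, had 52684, 45100 and 52536 in refed livers, against 34443, 54080 and 31038 in caged food livers and 21580, 29690 and 27790 in fasted livers (0.37 ± 0.22, adjusted p = 0.33). Manf, a secreted ER stress protein, had 5081, 3830 and 4141 in refed livers, against 2319, 5391 and 2870 in caged food livers (0.39 ± 0.26, adjusted p = 0.39). Sdf2l1, of an ER chaperone complex, had 1304, 1037 and 989 in refed livers, against 567, 2055 and 857 in caged food livers (0.14 ± 0.36, adjusted p = 0.86). In each of these genes caged food replicate 2 exceeded every refed library and the other caged food libraries lay below them. Without that library the differences were 0.61, 0.74 and 0.66 and still not called, while with quantile normalization Hspa5 was called higher (0.66, adjusted p = 0.037). Creld2, an ER disulfide isomerase family member (0.72 ± 0.33, adjusted p = 0.19), was called without caged food replicate 2 (1.08, adjusted p = 0.046). The fallers were Sil1, a nucleotide exchange factor of BiP (-0.36 ± 0.09, lost in 4 of 16 alternatives), and Ppib, cyclophilin B (-0.35 ± 0.11, lost in 9). Xbp1, the transcription factor of the unfolded protein response, rose (0.55 ± 0.11, adjusted p = 0.0013) with 13040, 15862 and 15409 in refed livers against 8881, 12282 and 9245 in caged food livers. Its call was lost in 2 of 16 alternatives. In the 19 sensor and degradation genes Xbp1 and Herpud1 were the calls, and in 28 genes of ER translocation and COPII export Sec61g, at low counts, rose (1.27 ± 0.41, adjusted p = 0.049998, lost in 10 of 15) and Sec24d fell (-0.35 ± 0.10, lost in 9).

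The ATF4 programme, which amino acid shortage and other stresses induce, was lower in part. Of 22 genes tested, 5 fell and 1 rose, with a median of -0.22, and the counts were the same without caged food replicate 2. Sesn2, a leucine sensor that restrains mTORC1, had 335, 326 and 248 in refed livers, against 1211, 1364 and 1082 in caged food livers (-2.01 ± 0.20, adjusted p = 4.7e-07). Chac1, which degrades glutathione, had 9, 19 and 16 in refed livers, against 116, 348 and 63 in caged food livers (-3.20 ± 0.58, adjusted p = 0.00064). Trib3, a pseudokinase (-1.76 ± 0.28), Cebpb (-1.68 ± 0.35) and Ppp1r15a, the phosphatase subunit GADD34 (-0.52 ± 0.13), fell, and Ddit3, the factor CHOP, rose (0.93 ± 0.21). Among 16 amino acid transporters 3 fell and 0 rose: Slc38a2 (-1.51 ± 0.21), Slc38a4 (-0.58 ± 0.10) and Slc7a2 (-0.66 ± 0.13), which carry neutral and cationic amino acids. The calls of Slc38a4 and Slc7a2 were lost in 2 and 3 of 16 alternatives. Slc38a2 had 2553, 2975 and 3426 in refed livers, against 7440, 11367 and 7143 in caged food livers. Of 26 genes of amino acid breakdown and the urea cycle, Bckdha and Gpt2 fell (-0.29 ± 0.07 and -0.30 ± 0.09), calls lost in 6 and 14 of 16 alternatives.

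Among lipid genes, Angptl8, an insulin-induced secreted protein that takes part in the control of lipoprotein lipase, had 5647, 8209 and 6954 in refed livers, against 759, 356 and 1196 in caged food livers (3.32 ± 0.30, adjusted p = 1.1e-07, 9.98-fold higher). Angptl8 was higher and Angptl4 lower in each refed library than in any caged food library. G0s2, an inhibitor of triglyceride lipase, rose (1.35 ± 0.39, lost in 6 of 16 alternatives). Among 21 lipogenesis genes 2 rose, Fasn, fatty acid synthase (0.65 ± 0.12), and Elovl6, a fatty acid elongase (0.65 ± 0.15), and 2 fell, Lpin1 and Lpin2 (-1.34 ± 0.17). Srebf1, their transcription factor, was not called (-0.09 ± 0.34, adjusted p = 0.91), and its sign changed in several alternatives. Mvd and Sqle, enzymes of cholesterol synthesis, were the 2 rises among 26 genes (1.19 ± 0.27 and 1.15 ± 0.32), where 6.73% of all genes were called higher. Their calls were lost in 2 and 5 of 16 alternatives, that of Sqle also without refed replicate 3, caged food replicate 1 or caged food replicate 3. Of 32 PPAR-alpha targets, Angptl4 was the 1 fall, and Cpt1a, the entry enzyme of mitochondrial fat oxidation, had an adjusted p of 0.19 (-0.25 ± 0.12). Without caged food replicate 2, 3 of the 32 fell. Of 16 bile acid genes, Slc27a5 fell (-0.32 ± 0.09, lost in 8 of 16), and of 12 NRF2 targets none was called (Nqo1 -0.42 ± 0.15, adjusted p = 0.072, called without refed replicate 1 at -0.58).

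**Figure D4:**
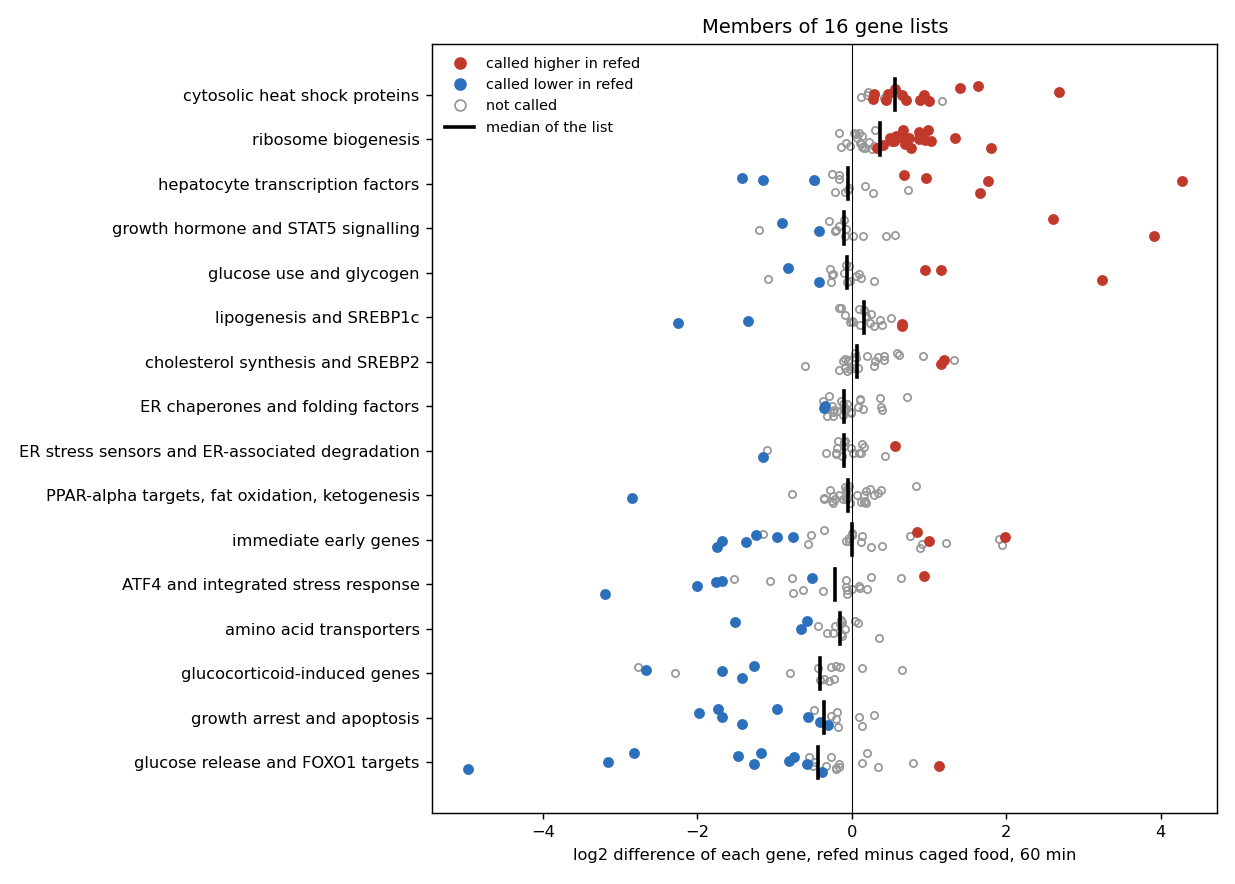
Log2 difference, refed minus caged food, of each member of 16 gene lists, with called genes filled, others open, and the list median as a black bar (vertical position within a list is jitter). Heat shock and ribosome biogenesis genes lie to the right (medians 0.55 and 0.37) and growth arrest, glucocorticoid and glucose release genes to the left (medians -0.37, -0.41 and -0.44).

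Signalling and rhythm genes moved in both directions. Of 28 immediate early genes 3 rose, Atf3 (1.98 ± 0.27), Jun (1.01 ± 0.30) and Klf4 (0.84 ± 0.26), and 6 fell, among them Junb (-1.75 ± 0.23), Zfp36, which promotes decay of cytokine mRNAs (-1.37 ± 0.20), and Btg1. Atf3 had 189, 121 and 278 in refed livers, against 48, 45 and 46 in caged food livers. Nr4a1 was not called (0.90 ± 0.40, adjusted p = 0.16). Erbb3, a receptor of neuregulins (-1.65 ± 0.14), and Efna1, an ephrin (-1.97 ± 0.22), fell and Dusp6, a phosphatase of ERK, rose (1.15 ± 0.27). Of 17 glucocorticoid-induced genes 4 fell and 0 rose (median -0.41): Arl4d, a small GTPase with 287, 231 and 288 in refed livers against 1750, 2347 and 1214 in caged food livers (-2.67 ± 0.24, adjusted p = 7.5e-08), Tsc22d3, also known as GILZ (-1.69 ± 0.31), Tat and Ddit4. Against fasted livers the list median was -0.06 in refed livers, where Arl4d and Tat were called lower. In caged food livers it was 0.43, with 0 called. Caged food replicate 2 had the highest sum of this list (388037, against 314018 and 292129 in replicates 1 and 3). Of 19 clock genes Per2 rose (1.28 ± 0.29), and Nfil3 (-1.36 ± 0.23), Cry2 (-0.49 ± 0.11), Nr1d1 (-0.52 ± 0.15, lost in 7 of 16 alternatives) and Rora (-0.39 ± 0.12) fell, while Per1 was not called (-0.36 ± 0.37, adjusted p = 0.62).

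Acute phase genes had the lowest list median, -0.82, and rested on 1 library. Of 24 genes 2 fell: Il6ra, the interleukin 6 receptor, with 1548, 2819 and 2299 in refed livers against 6063, 5342 and 5497 in caged food livers (-1.38 ± 0.19, and -1.42 without caged food replicate 2), and Saa4 (-1.33 ± 0.36). Saa4 had 3769, 9734 and 10406 in refed livers, against 12959, 34608 and 13548 in caged food livers, and was not called without caged food replicate 2 (-0.87, adjusted p = 0.12). Hpx, hemopexin, had 161305, 140366 and 136392 in refed livers, against 192401, 661306 and 174146 in caged food livers (-0.95 ± 0.32, adjusted p = 0.057), and was called without caged food replicate 1 or 3 (-1.22 and -1.29). Without that library the list median was -0.18, with 1 rise and 1 fall. All 8 Kupffer cell markers had differences below 0 (median -0.38) and none was called, and of 12 leukocyte markers Ms4a1, of B cells, fell (-1.30 ± 0.38). The part of these cells in other results was not tested.

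The same difference was then compared with that at other times, which rest on other libraries. With refed set against caged food, 44 genes (0.276%) were called at 30 min, 1797 (11.3%) at 120 min and 4303 (27%) at 240 min. The 60 min difference itself differed from that at 30 min for 112 genes (0.703%), 34 with a higher and 78 with a lower value at 60 min, and from that at 120 min for 255 genes (1.60%), 117 higher and 138 lower. Some glucose release genes separated between 30 and 60 min: G6pc differed by -0.30 ± 0.28 at 30 min and -3.16 ± 0.28 at 60 min (difference -2.86 ± 0.39, adjusted p = 0.00042), and 6 of the 24 list genes had a lower difference at 60 than at 30 min. Irs2 (difference -2.26 ± 0.36, adjusted p = 0.0022) and Igfbp1 (difference -3.77 ± 0.80, adjusted p = 0.024) were among them. Txnip was already called at 30 min (-0.59 ± 0.11, adjusted p = 0.011), with a change to 60 min of 0.01 ± 0.15. Depp1, outside the list, was also called at 30 min (-2.73 ± 0.37, adjusted p = 0.0004), and its change to 60 min was not called (adjusted p = 0.13). Pck1 differed by -0.05 ± 0.26 at 30 min, -1.48 ± 0.26 at 60 min and -3.17 ± 0.26 at 120 min, and its 60 min difference was smaller in size than that at 120 min (1.69 ± 0.37, adjusted p = 0.019).

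Several genes had their largest of the 4 differences at 60 min. Onecut1, Cish, Socs2, Ikzf4, Ip6k2 and Cpeb2 were named for the size of their 60 min difference. The comparisons between times use the same 60 min libraries, so this choice favours a largest value at 60 min. Onecut1 differed by 1.02, 4.27, 1.05 and 1.59 at 30, 60, 120 and 240 min, and the 60 min value exceeded that at 30 and at 120 min (adjusted p = 0.00042 and 0.00052). Cish differed by 1.78, 3.91, -0.33 and 0.86, and the 60 min value exceeded that at 120 min by 4.25 ± 0.52 (adjusted p = 0.00015). Socs2 differed by 0.69, 2.6003, -0.67 and -0.33 (3.27 ± 0.67 above 120 min, adjusted p = 0.012), and Ikzf4 by 1.14, 2.49, 0.16 and 0.43 (2.33 ± 0.37 above 120 min, adjusted p = 0.0015). For Cish, Socs2 and Ikzf4 the step from 30 to 60 min was not called (adjusted p = 0.052, 0.25 and 0.092). Among the falls, Ip6k2 differed by -0.92, -2.79, -0.997 and -1.31, and Cpeb2 by -0.09, -1.80, -0.40 and -0.36, both lower at 60 min than at 30 and 120 min. Ahr, the dioxin receptor, fell at 60 min (-0.45 ± 0.11, not with values scaled to equal totals) and differed by 1.24 at 120 min (change -1.68 ± 0.15, adjusted p = 1.2e-06).

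ER folding genes were called at the later times. At 120 min 19 of the 26 ER chaperones were higher in refed livers, against 0 at 60 min, and 12 had a lower difference at 60 than at 120 min. Hspa5 differed by 0.34, 0.37, 1.67 and 2.04 over the 4 times, Manf by 0.42, 0.39, 1.996 and 2.37, and Sdf2l1 by 0.47, 0.14, 2.58 and 3.04, and each differed between 60 and 120 min (adjusted p = 0.034, 0.023 and 0.013). Caged food replicate 2 is part of these 60 min values. Heat shock genes were called from 30 min on: 4 of 19 were called at 30 min, 13 at 60 min, 11 at 120 min and 15 at 240 min, and 0 differed between 60 and 30 or between 60 and 120 min. Hsph1 differed by 1.05, 1.403, 1.71 and 1.97. Of the 38 ribosome biogenesis genes, 0 were called higher at 30 min, 20 at 60 min, 12 at 120 min and 28 at 240 min. At 240 min 1 member, Npm1, was called lower.

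**Figure D5:**
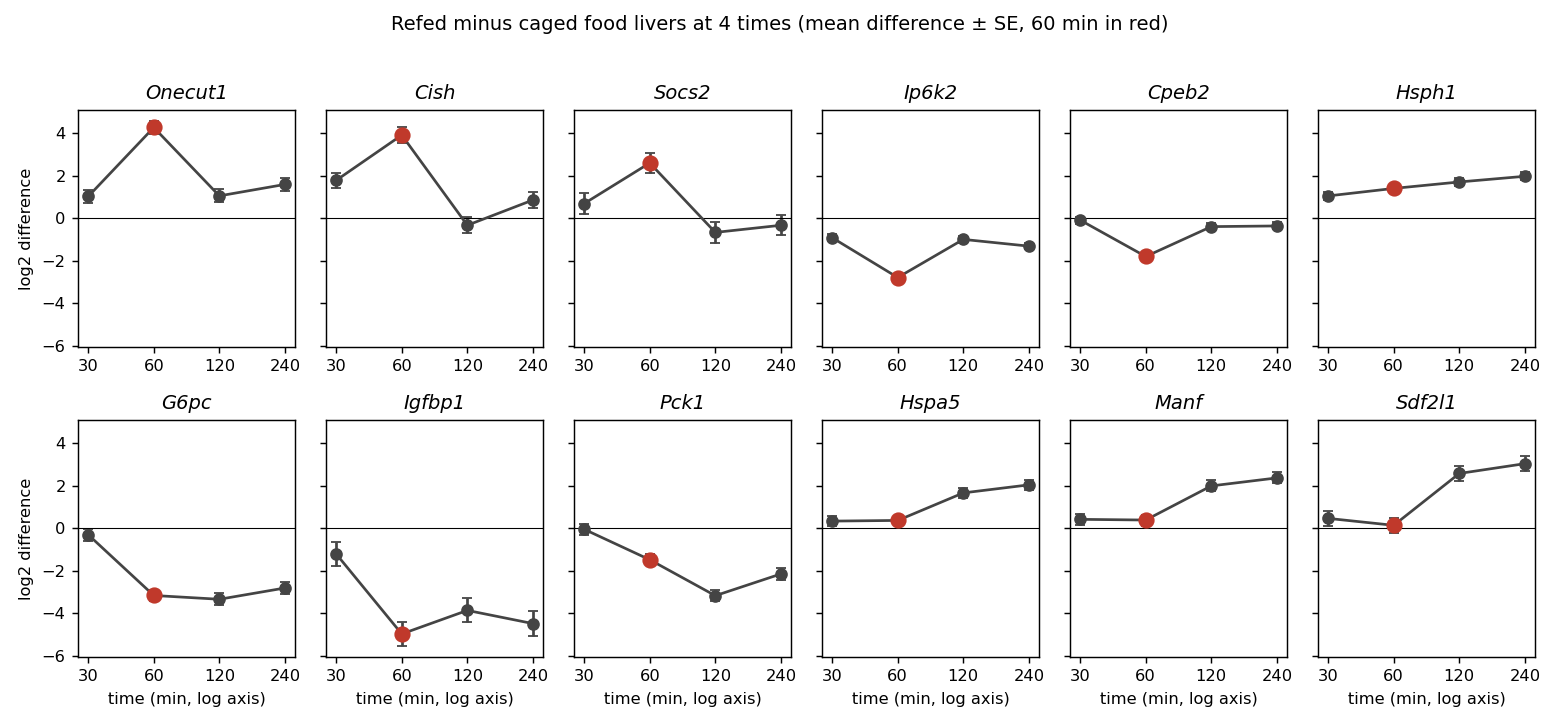
Log2 difference, refed minus caged food (y axis, ± SE, 3 libraries per group), of 12 genes at 30, 60, 120 and 240 min (x axis, log scale), with the 60 min value in red. Onecut1, Cish, Socs2, Ip6k2 and Cpeb2 lie farthest from 0 at 60 min, G6pc and Igfbp1 separate between 30 and 60 min, and Hspa5, Manf and Sdf2l1 between 60 and 120 min.

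Of 99 named genes called at 60 min, 57 kept their call in each alternative that gave a value, of up to 16. Of all 141 named genes, 27 overlap another annotated gene on the same strand and 58 on the opposite strand.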

How the data were processed

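Liver RNA was prepared with the RNeasy Mini kit and a stranded mRNA library kit, per the labels' protocols. The submitters' processing notes name STAR 2.4.0a, featureCounts 1.4.5-p1 and the mm10 (GRCm38) build. The deposited values are a score: read counts per gene that the authors divided by a scaling factor per library and rounded, by a method not given in the sources used here. A test on counts was therefore not used. The table holds 45706 genes and 27 libraries, and 0 columns belong to other samples.

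The 15932 genes that reached a value of 10 in 3 or more libraries entered a fit with limma 3.58.1 in R 4.3.3, with an intensity trend, on log2 (value + 1). All 9 groups of 3 libraries shared 1 estimate of the spread, and p-values were adjusted over all genes tested (Benjamini-Hochberg, under 0.05). A fold change on this scale understates changes of low genes. P-values set each difference against the spread between libraries within a group, estimated over all 9 groups. Reads per library were estimated from the step between low values, and they set the counting precision. The named genes were the 15 called rises and 15 called falls of largest size whose groups do not overlap, where the group that is higher averages 50 or more (predicted genes, clones and Y-linked genes left out), the genes of a fixed panel, up to 4 genes of lowest p per list, and the 6 of lowest p for each difference between times that are also called at 60 min. Some genes that the rule names are not reported here. The members and lists were chosen with earlier results of these data known. At 240 min, 2 libraries carry a treatment label that conflicts with their title, and they were grouped by title. Gene positions are from GENCODE M21 (GRCm38) and promoter windows from RefSeq (GRCm38.p6). Alternatives were quantile normalization, equal totals (added after seeing the data), another pseudocount, other filters, library weights, a replicate block, other handling of the conflicting labels, a fit of the compared groups alone and leaving out each library. Tables and figures used Python 3.11.15, numpy 2.4.6, pandas 2.3.3 and matplotlib 3.10.9.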

Additional observations from a re-analysis of the deposited data

Results flagged for a closer look

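Refed minus caged food at 60 min differed from the same contrast at 30 min, by the limma test of the difference of differences, in these named genes, given as log2 values, 60 min minus 30 min. Values above 0 were found for Onecut1 (3.25) and Serpina4-ps1 (3.26). Values below 0 were found for Igfbp1 (-3.77), G6pc (-2.86), Irs2 (-2.26), Angptl4 (-1.95), Sesn2 (-1.88), Ip6k2 (-1.87), Cpeb2 (-1.71), Pnrc1 (-1.41), Klf11 (-1.38), Dnmbp (-1.11), Bbc3 (-1.05), Tcp11l2 (-1.05) and Chic2 (-0.79).

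It differed from that at 120 min in the following genes, given as log2 values, 60 min minus 120 min. Values above 0 were found for Cish (4.25), Socs2 (3.27), Onecut1 (3.22), Ikzf4 (2.33), Pck1 (1.69), Ppargc1a (1.29), Pvrl2 (0.84) and Tcp11l2 (0.69). Values below 0 were found for Sdf2l1 (-2.44), Ip6k2 (-1.79), Ahr (-1.68), Efna1 (-1.63), Manf (-1.61), Irs2 (-1.51), Cpeb2 (-1.41), Hspa5 (-1.30) and Pnrc1 (-1.19).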

How the results depend on the processing

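At 60 min 1738 genes were called, and the count was 1347 to 1754 under the other settings except 3: 2924 with values scaled to equal totals, 908 with the 2 conflicting libraries grouped by their treatment label, and 465 with only the groups compared. Leaving out 1 library gave 1204 to 1700. The difference between 60 and 30 min (112 genes) gave 414 with equal totals, 2 by treatment label, 50 with only the groups compared, and 58 to 128 when 1 library was left out. The difference between 60 and 120 min (255 genes) gave 432 with library weights, 32 by treatment label, 82 with only the groups compared, and 141 to 299 when 1 library was left out. The cause was not tested. Some named genes, none called, changed sign: Apoa5 (0.0103) and Cpt1a (0.0140) with quantile normalization, Sdf2l1 (-0.27 without caged food replicate 1 to 0.66 without caged food replicate 2), and Srebf1 with equal totals (0.0589), with library weights (0.14), without refed replicate 1 (0.22) and without caged food replicate 1 (0.05), and -0.40 without refed replicate 2. Of 99 called named genes, 42 lost the call in at least 1 setting, 31 of them by treatment label.

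The replicate numbers are shared between groups, but the residuals of same-numbered refed and caged food libraries correlated at -0.14, -0.10 and 0.09, and 2 of 6 libraries were closest to their own number. With the replicate number as a block, 1633 genes were called.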
